A study of Homo sapiens with 19 samples.

Results

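Of the 34825 gene symbols in each of 2 tables of normalized RNA-seq counts, the 9 rows that carry the symbols JUN, JUNB, JUND, FOS, FOSB, FOSL1, FOSL2, MAFF and MAFK are described here. They were taken by symbol, from a list chosen with earlier results of these data known. All libraries came from HepG2, a human liver cancer cell line, as poly(A) RNA-seq. In the INO80 experiment the cells received 50 nM of a non-targeting control siRNA (NTG), of siINO80#1 or of siINO80#2 and were harvested 72 h later, with 3 libraries per group. INO80 is the ATPase of the INO80 chromatin remodelling complex, and MCRS1 is a subunit of the same complex that also belongs to the NSL acetyltransferase complex. In the drug experiment the cells were given 1 uM EPZ-6438, an inhibitor of the histone methyltransferase EZH2, or DMSO, starting 3 days before transfection with NTG or siMCRS1 (50 nM, harvest at 72 h). This gave 2 DMSO_NTG, 3 DMSO_siMCRS1, 3 EPZ_NTG and 2 EPZ_siMCRS1 libraries. MCRS1 was targeted with a single siRNA, and the same 3 NTG libraries served both siINO80 comparisons, which are therefore not independent of each other.

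AP-1 is a family of dimeric transcription factors held together by a leucine zipper. JUN proteins form dimers with each other or with FOS proteins, whereas FOS proteins need a JUN partner to bind DNA. The dimers recognize the TPA response element TGANTCA or the related cAMP response element TGACGTCA. Several AP-1 genes, with FOS and JUN as the classical cases, are immediate early genes that are transcribed within minutes of a growth factor or stress signal carried by MAP kinases. MAFF and MAFK are small MAF proteins, which have a leucine zipper but no transactivation domain and pair with CNC factors such as NRF2 or BACH1 at antioxidant response elements. In liver, JUN is known for its part in hepatocyte proliferation and regeneration.

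JUN, JUNB, FOSL1 and FOSL2 mRNA rose in all 4 comparisons of an siRNA with NTG, namely siINO80#1, siINO80#2 and siMCRS1 in either medium. JUND, FOS, FOSB, MAFF and MAFK were called higher in part of them, and none of the 9 was called lower. After siMCRS1, FOS rose 8.24-fold (on the log2(value + 1) scale) in DMSO and 8.49-fold in EPZ-6438, the largest effect among the members. A gene was called where the limma adjusted p was under 0.05, and all 9 members passed the filter on low values (a mean of at least 10) in both tables.

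With siINO80#1, 4 of 9 members were called higher, where 20.7% of all 14034 genes tested were higher and 20.8% lower. With siINO80#2 it was 6 of 9, where 26.6% of all genes were higher and 28.4% lower. Between the siRNAs, FOSB alone was higher with siINO80#2 (1 of 9, where 9.48% of all genes were higher and 12.6% lower). In the drug experiment, siMCRS1 raised 8 of 9 members in DMSO, where 23.1% of the 14312 genes tested were higher and 24.6% lower. In EPZ-6438 it raised 8 of 9, where 26.8% of all genes were higher and 26.9% lower. The median log2 fold change of the 9 members was 0.46, 0.95, 1.24 and 1.67 in these 4 comparisons against NTG in the order given, beside medians over all genes of 0.00, 0.00, 0.00 and 0.01. Among all calls the share that was higher was 49.9%, 48.3%, 48.4% and 49.9%, and with every library scaled to the same total it was 39.8%, 38.7%, 27.1% and 30.2%. The members called higher were then 4, 5, 7 and 8 of 9. In bulk RNA, a change in the share of cells that express a gene cannot be told apart from a change in its RNA per cell.

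**Figure D1:**
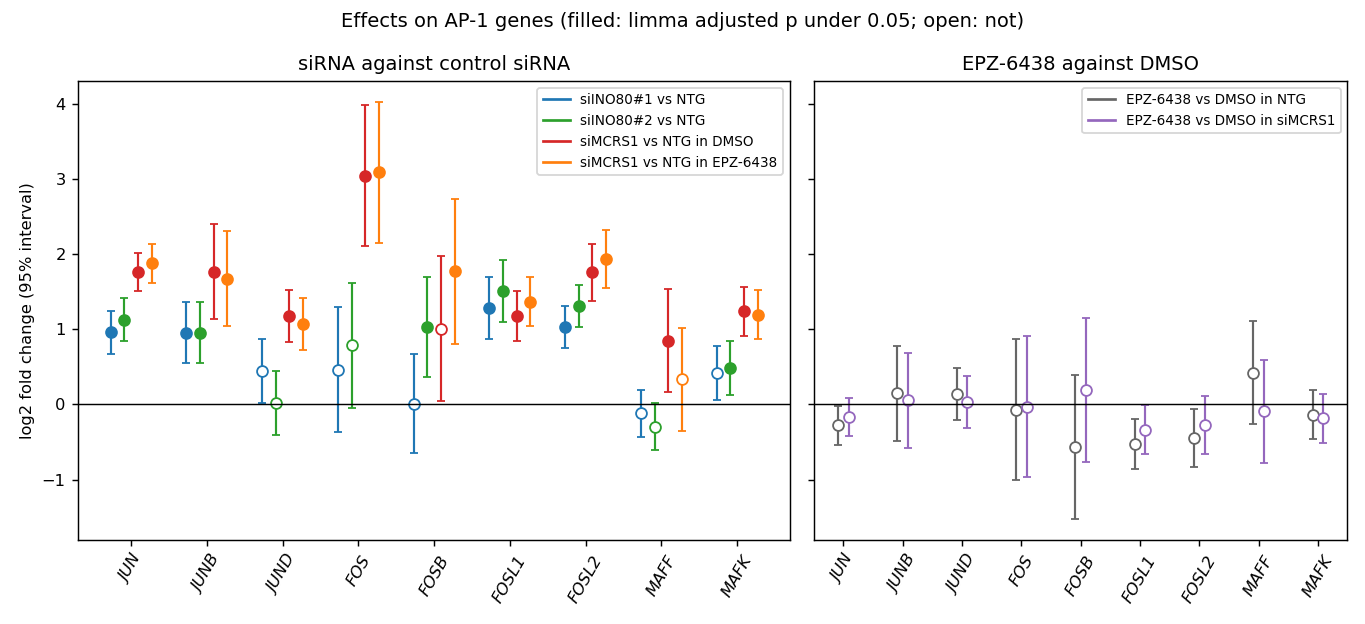
Log2 fold change of each of the 9 AP-1 genes (points) with its 95% interval (lines), for siRNA against NTG on the left and EPZ-6438 against DMSO on the right, both on one axis. Filled points have a limma adjusted p under 0.05. The FOS points for siMCRS1 stand highest, at 3.04 and 3.09, and every point on the right is open.

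Both siRNA targets fell in their own libraries. INO80 went from 1264 ± 82.2 normalized counts in NTG (SD, n = 3) to 608 ± 31.3 with siINO80#1 and 459.6 ± 21.7 with siINO80#2. MCRS1 went from 1429.8 ± 208 (n = 2) to 114 ± 28.5 (n = 3) in DMSO and from 1363 ± 166 (n = 3) to 108 ± 24.8 (n = 2) in EPZ-6438. INO80 was also called lower after siMCRS1. Its log2 fold change was -0.27 (SE 0.10, limma adjusted p = 0.0387) in DMSO and -0.35 (SE 0.10, limma adjusted p = 0.00966) in EPZ-6438. A library held 17093574 to 25369547 reads when made for INO80 and 26038505 to 47397233 when made for the drug, and 3 reads corresponded to 2.13 to 4.30 normalized counts. Compared with the other libraries of its group, siINO80#2 replicate C stood apart, with a chi-square per degree of freedom of 84.3 against A and 121 against B, where all other pairs within an INO80 group gave 9.45 to 18.7. Without it the same 6 members were called with siINO80#2. All 10 hepatocyte markers examined were expressed in both tables, with summed levels of 717050 to 882107 in NTG, 821464 to 1014100 with siINO80#1 and 579604 to 794864 with siINO80#2. Of these 10, 0 rose and 1 fell with siINO80#1, 0 rose and 5 fell with siINO80#2, 0 rose and 2 fell with siMCRS1 in DMSO, and 1 rose and 2 fell with siMCRS1 in EPZ-6438. The liver factor gene HNF4A was called lower in all 4, and ALB, the albumin gene, was the one called higher (0.57 on the log2 scale). The summed level of 5 fibroblast markers ran from 110 to 146 in NTG, 144 to 223 with siINO80#1 and 80.4 to 117 with siINO80#2. It ran from 238 to 288 in DMSO_NTG, 128 to 209 in EPZ_NTG, 369 to 785 in DMSO_siMCRS1 and 638 to 728 in EPZ_siMCRS1. COL1A1 had the highest mean of the 5, at 99.0 over the INO80 libraries and 389 over the drug libraries. LUM had the lowest, at 0.44 and 2.70. In the same order, COL1A2 averaged 14.8 and 4.02, DCN 11.7 and 5.03, and COL3A1 5.63 and 28.3. The 4 leukocyte markers summed to 997 to 1065 in DMSO_NTG and 933 to 1634 in EPZ_NTG and were lower in DMSO_siMCRS1 (739 to 868) and EPZ_siMCRS1 (617 to 721), and CD3E was at 0 in all INO80 libraries. CD68 made up most of the leukocyte sum, with a mean of 919 over the drug libraries. The 3 endothelial markers, mostly PECAM1, summed to 207 to 244 in NTG and 280 to 340.1 with siINO80#2. The part of these markers in the results was not tested.

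RefSeq (GRCh38.p14) promoter windows were on hand for 7 of the 9 members, with 2 windows for MAFF, and not for FOSL1 or MAFK. Of these 7, JUN, JUND and MAFF held the letters TGACNTCA on either strand within 250 bases before and 50 after the start, as did 7.72% of 35116 promoters of the same length. The full TGACGTCA, which is a case of TGACNTCA, stood in JUND and MAFF and in 1.85% of all promoters. FOSL2 alone held TGANTCA, from base 5 to 11 after its start, as did 7.71% of all promoters. A CArG box, the site bound by serum response factor, was in 1.29% of all promoters and in no member's window. Bases more than 250 before the start were not searched, so a site further upstream would be missed. The 250 bases before the start are shown 5′ to 3′ on the gene's strand for the 3 members with TGACNTCA, which is in capitals, and for FOS, the member with the largest effect, which had no match.
JUN, chr1:58784048-58784297, minus strand: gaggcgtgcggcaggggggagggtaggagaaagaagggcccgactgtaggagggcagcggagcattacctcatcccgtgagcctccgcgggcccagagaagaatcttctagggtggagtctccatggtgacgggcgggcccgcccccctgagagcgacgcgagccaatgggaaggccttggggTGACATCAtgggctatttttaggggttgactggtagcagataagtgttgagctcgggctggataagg
JUND, chr19:18281623-18281872, minus strand: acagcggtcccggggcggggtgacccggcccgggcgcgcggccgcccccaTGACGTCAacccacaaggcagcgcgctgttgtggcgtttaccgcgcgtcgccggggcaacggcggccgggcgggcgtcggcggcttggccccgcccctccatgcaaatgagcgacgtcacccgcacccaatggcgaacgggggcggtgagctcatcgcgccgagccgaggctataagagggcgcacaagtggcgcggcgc
MAFF, chr22:38201744-38201993, plus strand: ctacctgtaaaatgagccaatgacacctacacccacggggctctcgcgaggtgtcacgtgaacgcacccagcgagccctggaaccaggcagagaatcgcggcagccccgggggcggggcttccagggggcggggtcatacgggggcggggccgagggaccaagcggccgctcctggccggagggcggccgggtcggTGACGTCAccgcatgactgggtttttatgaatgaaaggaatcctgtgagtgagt
FOS, chr14:75278578-75278827, plus strand: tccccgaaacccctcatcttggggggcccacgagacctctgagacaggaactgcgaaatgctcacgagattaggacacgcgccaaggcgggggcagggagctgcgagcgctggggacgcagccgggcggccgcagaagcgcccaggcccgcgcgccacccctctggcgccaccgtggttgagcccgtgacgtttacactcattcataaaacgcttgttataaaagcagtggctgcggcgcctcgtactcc
The match lay 67 to 60 bases before the start in JUN, 200 to 193 in JUND and 54 to 47 in MAFF. For MAFF this was the window shown, and its other window, with upstream bases at chr22:38202770-38203019, held none of the motifs searched. TATAA began 29 to 33 bases before the start in FOS, FOSB, JUNB and JUND, and stood in 20.4% of all promoters anywhere in the window. Members with and without a match were thus among those that rose.

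JUN, the founding member and the most potent activator among the JUN proteins, is a gene of 1 exon on chromosome 1 (58780791 to 58784047, GRCh38). Its normalized count was 1178, 875 and 1075 in the 3 NTG libraries, 1989.9, 1914 and 2138 with siINO80#1 and 2382, 1895 and 2560.2 with siINO80#2. Each siINO80 library was above each NTG library. The log2 fold change was 0.96 (SE 0.13, limma adjusted p = 1.95e-04) for siINO80#1 and 1.13 (SE 0.13, limma adjusted p = 3.35e-05) for siINO80#2. In the drug libraries, JUN stood at 1907 and 1824 in DMSO_NTG, 1451, 1684 and 1481 in EPZ_NTG, 6570.3, 6984 and 5509 in DMSO_siMCRS1 and 5533 and 5744 in EPZ_siMCRS1. The siMCRS1 libraries formed a high group with no overlap, and the 3 EPZ_NTG libraries were all below the 2 of DMSO_NTG. JUN rose by 1.76 (SE 0.12, limma adjusted p = 8.27e-06) in DMSO and by 1.88 (SE 0.12, limma adjusted p = 3.49e-06) in EPZ-6438 on the log2 scale, the smallest adjusted p of any member in either comparison.

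JUNB, which binds the same sites but activates them more weakly and can restrain JUN, lies on chromosome 19 (12791486 to 12793315) and also has 1 exon. NTG libraries gave 226, 143 and 221 normalized counts, siINO80#1 331, 357 and 442, and siINO80#2 332, 365 and 432. The lowest siINO80 library was above the highest NTG library. The effect was the same to 2 decimals with either siRNA, at 0.95 (SE 0.18, limma adjusted p = 0.00194) for siINO80#1 and 0.95 (SE 0.18, limma adjusted p = 0.00125) for siINO80#2 on the log2 scale. JUNB levels in the drug experiment were 286 and 204 in DMSO_NTG, 254, 380.1 and 199 in EPZ_NTG, 767, 1058 and 688 in DMSO_siMCRS1 and 706 and 1038 in EPZ_siMCRS1. Both siMCRS1 groups again lay wholly above both NTG groups, which overlapped each other. siMCRS1 raised JUNB by 1.76 (SE 0.29, limma adjusted p = 6.27e-04) in DMSO and 1.67 (SE 0.29, limma adjusted p = 6.57e-04) in EPZ-6438.

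JUND, the JUN gene that many resting cells express at a steady level, lies on chromosome 19 (18279694 to 18281622). It read 1399.7, 1659 and 1879.8 normalized counts in NTG, 1679.9, 2387 and 2756 with siINO80#1 and 1295, 1873 and 1854 with siINO80#2. All 3 groups overlapped. Neither effect passed the test, with a log2 fold change of 0.45 (95% interval 0.02 to 0.87, limma adjusted p = 0.0881) for siINO80#1 and 0.01 (95% interval -0.41 to 0.44, limma adjusted p = 0.956) for siINO80#2. Without siINO80#1 replicate A, its lowest library, the siINO80#1 effect was 0.65 with a limma adjusted p of 0.0162. In each of the 3 replicate letters JUND was higher with siINO80#1 than with NTG, and with the letter as a block the effect of 0.45 had a limma adjusted p of 0.00196. DESeq2 also called it (adjusted p = 0.0315). For the drug libraries, JUND read 2381 and 2045 in DMSO_NTG and 2288, 3077 and 2043 in EPZ_NTG against 5466, 4813 and 4691 in DMSO_siMCRS1 and 5235 and 4977 in EPZ_siMCRS1. No siMCRS1 library came near the NTG range. JUND rose by 1.17 (SE 0.16, limma adjusted p = 2.05e-04) in DMSO and 1.07 (SE 0.16, limma adjusted p = 2.45e-04) in EPZ-6438.

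FOS, the short-lived immediate early partner of JUN, lies on chromosome 14 (75278828 to 75282230). It was scarce in NTG cells, at 68.0, 20.5 and 36.5 normalized counts (61, 20 and 38 reads), and read 46.5, 43.6 and 67.3 with siINO80#1 and 59.5, 86.5 and 52.9 with siINO80#2. NTG replicate A was above all but 1 of the siINO80 libraries, and the groups overlapped. The log2 fold change was 0.46 (95% interval -0.37 to 1.29, limma adjusted p = 0.362) for siINO80#1 and 0.79 (95% interval -0.05 to 1.62, limma adjusted p = 0.1) for siINO80#2, neither passing the test. Without NTG replicate A the siINO80#2 effect was 1.21 with a limma adjusted p of 0.0109. With siMCRS1 it went from 57.4 and 26.7 in DMSO_NTG to 302, 513 and 233 in DMSO_siMCRS1, and from 29.1, 60.4 and 29.4 in EPZ_NTG to 282 and 372 in EPZ_siMCRS1. The lowest siMCRS1 library stood well above the highest NTG library in either medium. FOS rose by 3.04 (SE 0.43, limma adjusted p = 2.6e-04) in DMSO and by 3.09 (SE 0.43, limma adjusted p = 1.67e-04) in EPZ-6438 on the log2 scale. By size of effect, FOS ranked 78th of 14312 genes in DMSO and 131st in EPZ-6438.

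FOSB, another immediate early FOS protein, known for its long-lived splice form in neurons, lies on chromosome 19 (45467996 to 45475179) and was the least expressed member. Its normalized count was 31.2, 13.3 and 27.8 in NTG, 20.3, 21.8 and 27.1 with siINO80#1 and 47.1, 45.2 and 50.1 with siINO80#2, from 13 to 59 reads per library. The siINO80#2 libraries were above all others, whereas siINO80#1 lay within the NTG range. FOSB rose by 1.03 (SE 0.30, limma adjusted p = 0.0133) with siINO80#2, while the siINO80#1 effect was 0.01 (95% interval -0.65 to 0.67, limma adjusted p = 0.981). Set directly against siINO80#1, siINO80#2 gave 1.02 (SE 0.30, limma adjusted p = 0.0338), a call that was lost on leaving out any 1 of the 6 libraries, with adjusted p between 0.0534 and 0.104. The drug libraries gave 15.3 and 22.9 in DMSO_NTG, 6.46, 17.8 and 15.8 in EPZ_NTG, 33.4, 50.7 and 34.4 in DMSO_siMCRS1 and 36.8 and 53.3 in EPZ_siMCRS1. Every siMCRS1 library was above every NTG library, at counts as low as 6 reads in 1 EPZ_NTG library. The effect was 1.01 (95% interval 0.05 to 1.97, limma adjusted p = 0.0775) in DMSO and 1.77 (SE 0.43, limma adjusted p = 0.00557) in EPZ-6438, where the adjusted p was 0.0632 without EPZ_siMCRS1 replicate B.

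FOSL1 encodes FRA-1, a FOS-related protein without the FOS transactivation domain that is prominent in invasive tumour cells, and lies on chromosome 11 (65892049 to 65900545). NTG libraries held 386, 412 and 329 normalized counts, siINO80#1 libraries 863, 911 and 951 and siINO80#2 libraries 985, 806 and 1507. Every siINO80 library was above the NTG range, and siINO80#2 replicate C, the library that stood apart, was the highest. FOSL1 had the largest effect of all members under either siINO80 siRNA, with 1.28 (SE 0.19, limma adjusted p = 3.41e-04) for siINO80#1 on the log2 scale and a fold change of 2.83 (SE 0.19 in log2, limma adjusted p = 5.98e-05) for siINO80#2. Without siINO80#2 replicate C its log2 fold change was 1.25 and still called. In the drug experiment its count was 1116 and 1032 in DMSO_NTG, 715, 879.5 and 652 in EPZ_NTG, 2280.2, 2817 and 2207 in DMSO_siMCRS1 and 1794 and 2055 in EPZ_siMCRS1. All 4 groups were apart, in the order EPZ_NTG, DMSO_NTG, EPZ_siMCRS1, DMSO_siMCRS1. siMCRS1 raised FOSL1 by 1.17 (SE 0.15, limma adjusted p = 1.6e-04) in DMSO and 1.37 (SE 0.15, limma adjusted p = 4.2e-05) in EPZ-6438.

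FOSL2 encodes FRA-2, the other FOS-related protein, and lies on chromosome 2 (28392858 to 28417317). Its normalized count was 758, 572 and 557 in NTG, 1123, 1380.1 and 1338 with siINO80#1 and 1602, 1408 and 1621 with siINO80#2. The 3 groups did not overlap, with siINO80#2 the highest. The log2 fold change was 1.03 (SE 0.13, limma adjusted p = 1.05e-04) for siINO80#1 and 1.31 (SE 0.13, limma adjusted p = 1.11e-05) for siINO80#2, and the difference between the siRNAs was 0.27 (95% interval -0.01 to 0.55, limma adjusted p = 0.15). With siMCRS1 it went from 839.7 and 956 to 2851, 2995 and 3244 in DMSO and from 542, 833 and 636 to 2205 and 2864 in EPZ-6438. The siMCRS1 libraries were all far above the NTG libraries of their medium. FOSL2 rose by 1.75 (SE 0.17, limma adjusted p = 4.42e-05) in DMSO and 1.93 (SE 0.17, limma adjusted p = 1.57e-05) in EPZ-6438.

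MAFF, a small MAF induced by cytokines and stress, lies on chromosome 22 (38201994 to 38216511) and was called in 1 of the 4 comparisons with NTG. NTG libraries gave 529.8, 518 and 606 normalized counts, siINO80#1 514, 615 and 410.2 and siINO80#2 484, 402 and 463. The siINO80#2 libraries were all below NTG, and siINO80#1 spread across the NTG range. Its log2 fold change was -0.12 (95% interval -0.43 to 0.19, limma adjusted p = 0.528) for siINO80#1 and -0.29 (95% interval -0.60 to 0.01, limma adjusted p = 0.0977) for siINO80#2. With every library scaled to the same total, the siINO80#2 value was -0.40 with a limma adjusted p of 0.0439. In the drug experiment MAFF read 576 and 785 in DMSO_NTG, 532, 1114 and 1231 in EPZ_NTG, 1009, 1375 and 1285 in DMSO_siMCRS1 and 1009 and 1279.9 in EPZ_siMCRS1. Both DMSO_NTG libraries were below all siMCRS1 libraries, whereas 2 of the 3 EPZ_NTG libraries lay within the siMCRS1 range. Under siMCRS1, MAFF rose by 0.85 (SE 0.31, limma adjusted p = 0.0425) with DMSO, and its difference with EPZ-6438 was 0.34 (95% interval -0.35 to 1.02, limma adjusted p = 0.386). With no filter on low values MAFF was no longer called in DMSO (limma adjusted p = 0.0691). Nor was it with every library scaled to the same total (0.121), with quantile normalization (0.0561) or in limma without a trend (0.0796). The call in DMSO was lost without either DMSO_NTG library (0.63 without the one at 576, 1.07 without the one at 785) or without the DMSO_siMCRS1 library at 1375 (0.76) or at 1285 (0.81), with limma adjusted p from 0.057 to 0.253.

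MAFK, a small MAF that many tissues express, lies on chromosome 7 (1530702 to 1543043). It stood at 718, 469 and 666 normalized counts in NTG, 755, 777 and 912 with siINO80#1 and 966, 891 and 709 with siINO80#2. The siINO80#1 libraries were above NTG, whereas 1 siINO80#2 library fell inside the NTG range. MAFK rose with siINO80#2 by 0.48 (SE 0.16, limma adjusted p = 0.028), a call lost without NTG replicate B (0.29) or siINO80#2 replicate A (0.39) or B (0.45). It was also lost with every library scaled to the same total (0.37, limma adjusted p = 0.116) and in limma without a trend (adjusted p = 0.0543). The siINO80#1 effect of 0.42 (95% interval 0.06 to 0.78, limma adjusted p = 0.0631) just missed the threshold, and was called without NTG replicate A (0.54). Values in the drug libraries were 760.2 and 908 in DMSO_NTG, 736, 780.0 and 746 in EPZ_NTG, 1672, 2268 and 1992 in DMSO_siMCRS1 and 1542 and 1929.6 in EPZ_siMCRS1. Here the siMCRS1 libraries were all above the NTG libraries. MAFK rose by 1.24 (SE 0.15, limma adjusted p = 1.12e-04) in DMSO and 1.19 (SE 0.15, limma adjusted p = 8.8e-05) in EPZ-6438.

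**Figure D2:**
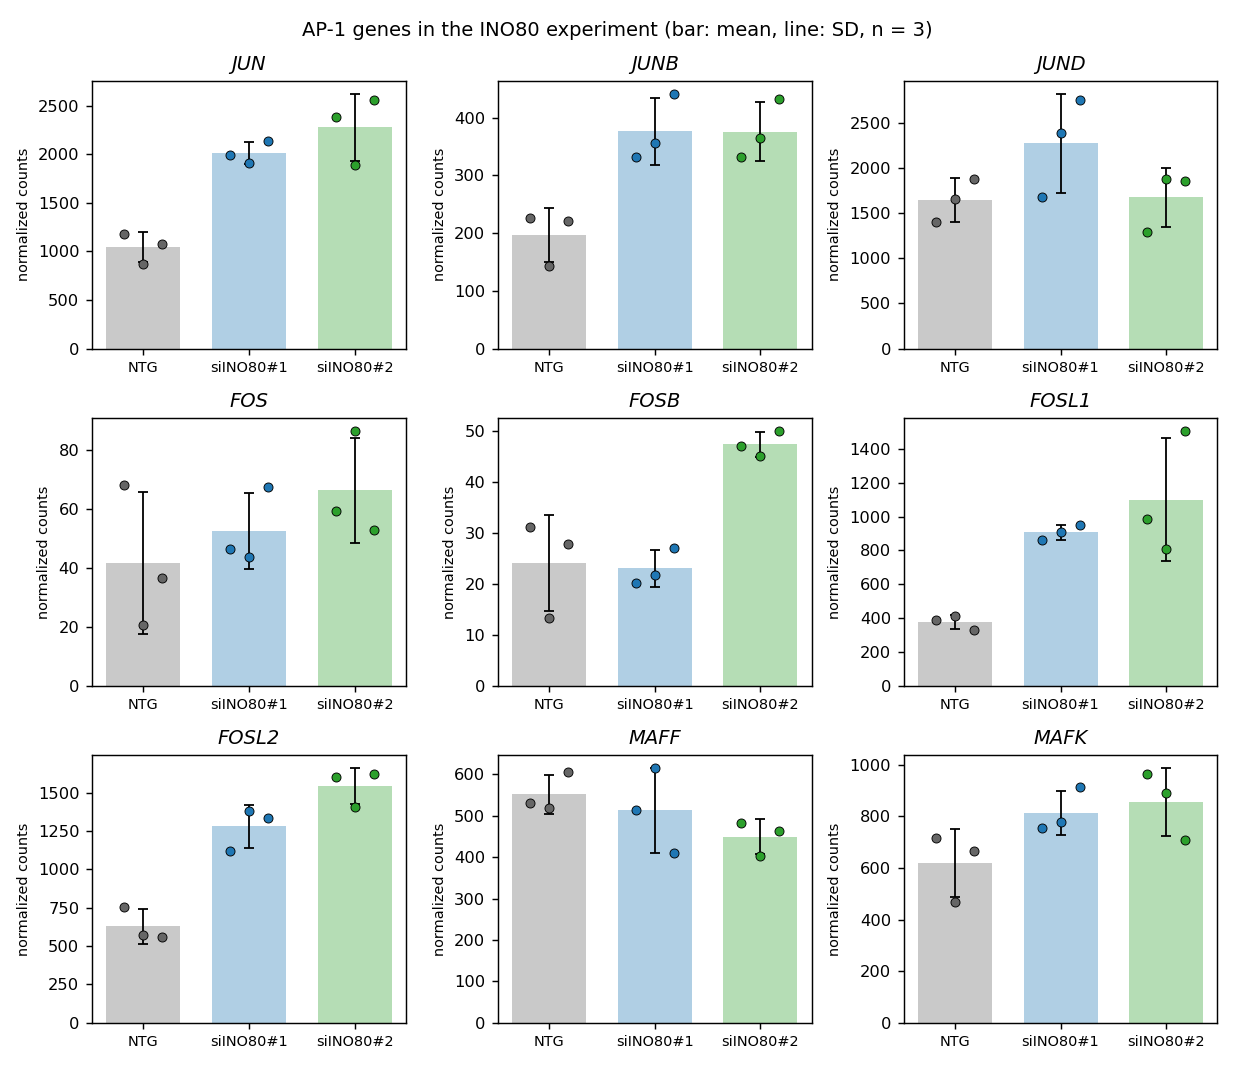
Normalized counts of the 9 AP-1 genes in the INO80 experiment, 1 panel per gene with its own axis from 0. Points are the 3 libraries of each group, bars the mean and lines the SD. JUN, JUNB, FOSL1 and FOSL2 are higher in all siINO80 libraries than in NTG, FOSB is higher with siINO80#2 alone, and JUND and FOS overlap between groups.

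**Figure D3:**
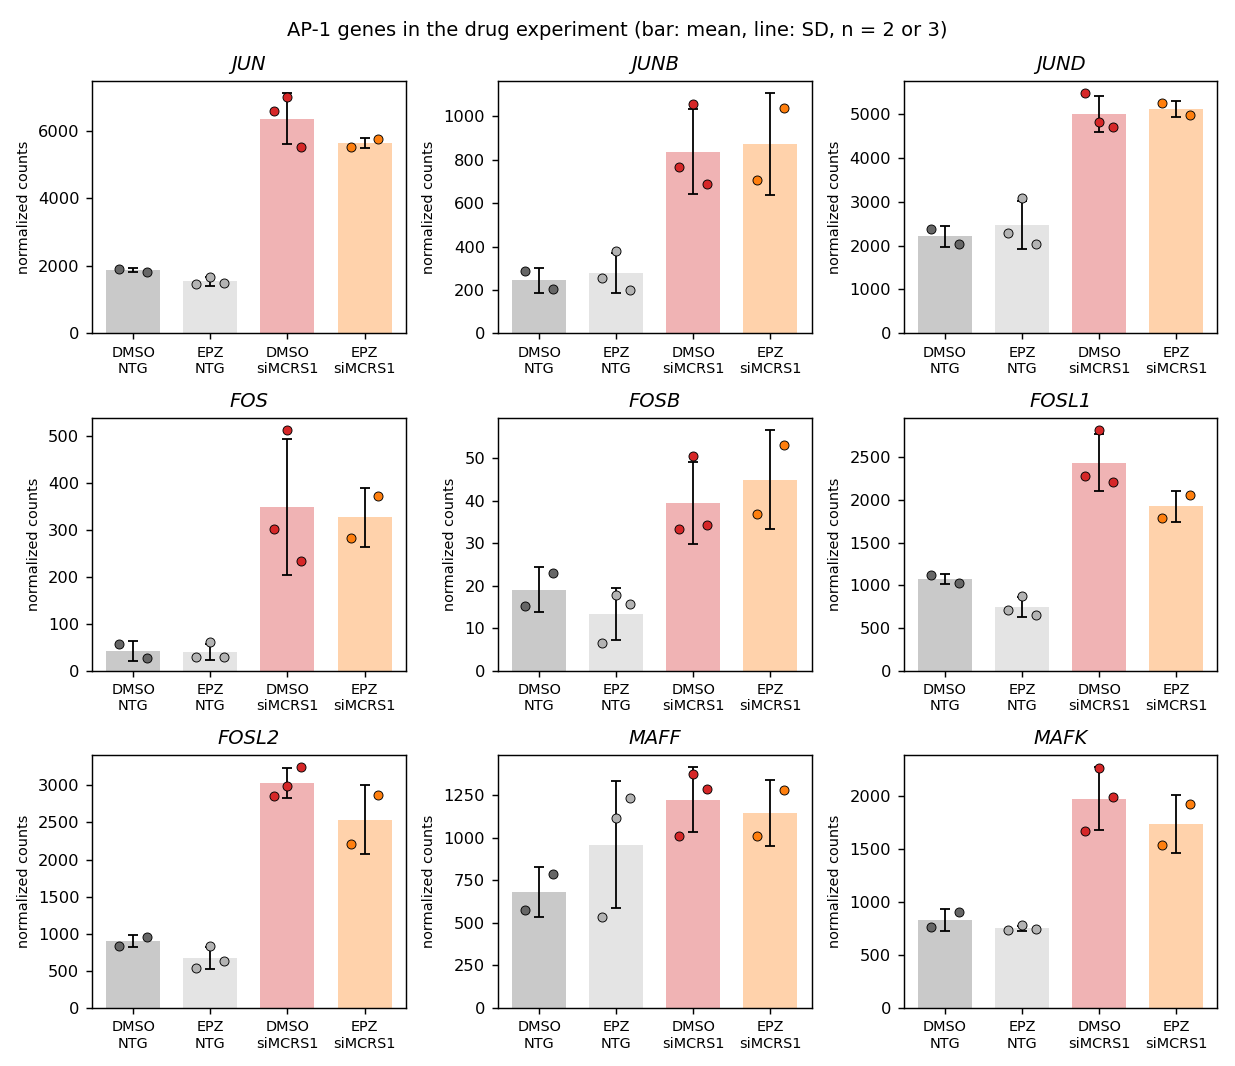
Normalized counts of the same genes in the drug experiment, drawn the same way with 2 or 3 libraries per group. In every panel but MAFF, the siMCRS1 libraries lie above the NTG libraries of both media.

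For EPZ-6438 itself no member passed the test in the fit of all groups without a block. Against DMSO in NTG cells, limma called 0 of 9 members, where it called 0.384% of all genes. At an unadjusted p under 0.05 there were 3 members, and the share of all genes at that level was not computed. edgeR also called 0 and DESeq2 called 1, FOSL1, with an adjusted p of 0.0396. FOSL1, FOSL2 and JUN were the 3 members whose EPZ_NTG libraries were all below the DMSO_NTG libraries. Their log2 differences were -0.53 (95% interval -0.86 to -0.20, limma adjusted p = 0.124) for FOSL1, -0.44 (95% interval -0.83 to -0.06, limma adjusted p = 0.234) for FOSL2 and -0.28 (95% interval -0.54 to -0.02, limma adjusted p = 0.251) for JUN. With the number in the column names as a block, over the 8 numbered libraries, limma called these 3 lower, at -0.65 for FOSL1 (adjusted p = 0.0134), -0.52 for FOSL2 (0.0496) and -0.35 for JUN (0.0437). Without the block, the same 8 libraries gave 0 calls. No label says what the numbers stand for. The other 6 ran from -0.57 for FOSB to 0.42 for MAFF. In siMCRS1 cells EPZ-6438 gave 0 calls of 9 by limma, by edgeR and by DESeq2, where limma called 0.0908% of all genes. There 1 member had an unadjusted p under 0.05. That member was FOSL1, at -0.33 (95% interval -0.66 to -0.00, limma adjusted p = 0.544). For the other 8 the siMCRS1 differences ran from -0.27 for FOSL2 to 0.19 for FOSB.

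The effect of siMCRS1 was not shown to differ between EPZ-6438 and DMSO. The interaction was called for 0 of 9 members by limma, edgeR and DESeq2, and 0 had an unadjusted p under 0.05, where 0% of all 14312 genes were called. Intervals for the difference were wide for the scarce genes, with 0.04 (95% interval -1.28 to 1.37, limma adjusted p = 1) for FOS and 0.76 (95% interval -0.60 to 2.11, limma adjusted p = 1) for FOSB on the log2 scale. They were narrower for JUN, at 0.11 (95% interval -0.25 to 0.48, limma adjusted p = 1), and for FOSL2, at 0.17 (95% interval -0.37 to 0.72, limma adjusted p = 1). MAFF, called in DMSO but not in EPZ-6438, gave -0.51 (95% interval -1.48 to 0.45, limma adjusted p = 1), so its effects were not shown to differ.

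Between the siINO80 siRNAs, FOSB was the sole call. The log2 difference between siINO80#2 and siINO80#1 was 0.17 (95% interval -0.12 to 0.45, limma adjusted p = 0.387) for JUN and 0.23 (95% interval -0.19 to 0.64, limma adjusted p = 0.428) for FOSL1. For MAFK it was 0.06 (95% interval -0.30 to 0.43, limma adjusted p = 0.822). JUND gave -0.43 (95% interval -0.86 to -0.01, limma adjusted p = 0.137), which missed the threshold and was called without siINO80#1 replicate A (-0.64, limma adjusted p = 0.0401).

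Per kilobase of transcript, the scale on which genes can be compared, JUND had the highest mean of the members in all 7 groups. With siINO80#2 its range (671 to 971 normalized counts per kb) overlapped those of JUN (582 to 786) and FOSL1 (473 to 885). In NTG cells of the INO80 experiment JUND stood at 853 ± 125 normalized counts per kb (SD, n = 3). JUN followed at 320.1 ± 47.3, then MAFF at 232 (lowest library 218) and FOSL1 at 221 ± 24.7, which did not differ beyond their SD. MAFK at 183 ± 38.9 overlapped the range of FOSL1, and JUNB at 107 ± 25.6 and FOSL2 at 93.7 ± 16.7 overlapped each other. FOS at 19.8 ± 11.5 and FOSB at 6.39 ± 2.52 came last in all groups of both experiments. With either siINO80 siRNA the order of the means of MAFF, MAFK and FOSL1 changed. FOSL1 stood at 534 ± 25.7 and MAFF at 216 ± 43.1 per kb with siINO80#1. With siINO80#2 they stood at 646 ± 214 and 189 ± 17.8.

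In DMSO_NTG cells, JUND (1147 ± 123 per kb, n = 2) was followed by FOSL1 (631 ± 35.2) and JUN (573 ± 18.1). In DMSO_siMCRS1 cells JUN (1951 ± 234, n = 3) stood above FOSL1 (1431 ± 196) and below JUND (2587 ± 216). FOS reached 166 ± 69.3 per kb but was still below JUNB (458 ± 107) and FOSL2 (451 ± 29.6). So FOS had the largest fold change and remained one of the scarcest AP-1 mRNAs.

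The make-up of the JUN family, as each gene's share of the summed level per kb of JUN, JUNB and JUND, held less JUND and more JUN on average in each siRNA group than in its NTG control. JUND made up 66.5% ± 5.90 in NTG (SD, n = 3), 58.3% ± 5.18 with siINO80#1 and 48.8% ± 6.53 with siINO80#2. JUN made up 25.1% ± 4.15, 31.3% ± 4.69 and 39.7% ± 6.48 in the same groups. The JUN share overlapped between NTG and siINO80#1 (exact two-sided permutation p = 0.3) and did not overlap between NTG and siINO80#2 (p = 0.1 by the same exact test, the smallest that 3 against 3 libraries can give). With siMCRS1 the JUN share went from 31.0% ± 1.91 to 39.0% ± 1.86 in DMSO and from 25.2% ± 2.87 to 35.7% ± 0.36 in EPZ-6438. Neither pair of groups overlapped, and the exact permutation p was 0.2 for both. That is the smallest this two-sided test, which doubles the smaller tail, can give for 2 against 3 libraries. The permutation test could thus not reach 0.05 for any share.

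FOSL1 was the main FOS-family mRNA in every group, with 65.0% ± 5.76 of the summed level per kb of FOS, FOSB, FOSL1 and FOSL2 in NTG and 79.9% ± 1.24 in DMSO_NTG. Its share in DMSO_siMCRS1 was 69.4% ± 1.04, below the DMSO_NTG range. FOS took the opposite course, from 2.51% ± 1.21 to 7.89% ± 2.28 in DMSO and from 3.25% ± 0.87 to 9.24% ± 0.63 in EPZ-6438, again without overlap (exact permutation p = 0.2 for both). So did FOSL2, from 17.0% ± 2.24 to 22.2% ± 3.26 in DMSO and from 17.7% ± 1.84 to 22.5% ± 1.32 in EPZ-6438. Its ranges did not overlap either (exact permutation p = 0.2 for both). With siINO80#1 or siINO80#2 the FOS, FOSL1 and FOSL2 shares all overlapped with NTG. The FOSB share did not overlap between NTG (1.89% ± 0.75) and siINO80#1 (0.81% ± 0.08, exact permutation p = 0.1, the smallest possible), and overlapped between NTG and siINO80#2. The summed level of the FOS family went from 341 ± 39.6 per kb in NTG to 755 ± 48.7 with siINO80#1 and 920 ± 221 with siINO80#2 (SD, n = 3), and from 789.8 ± 31.8 in DMSO_NTG to 2059 ± 260.2 in DMSO_siMCRS1.

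**Figure D4:**
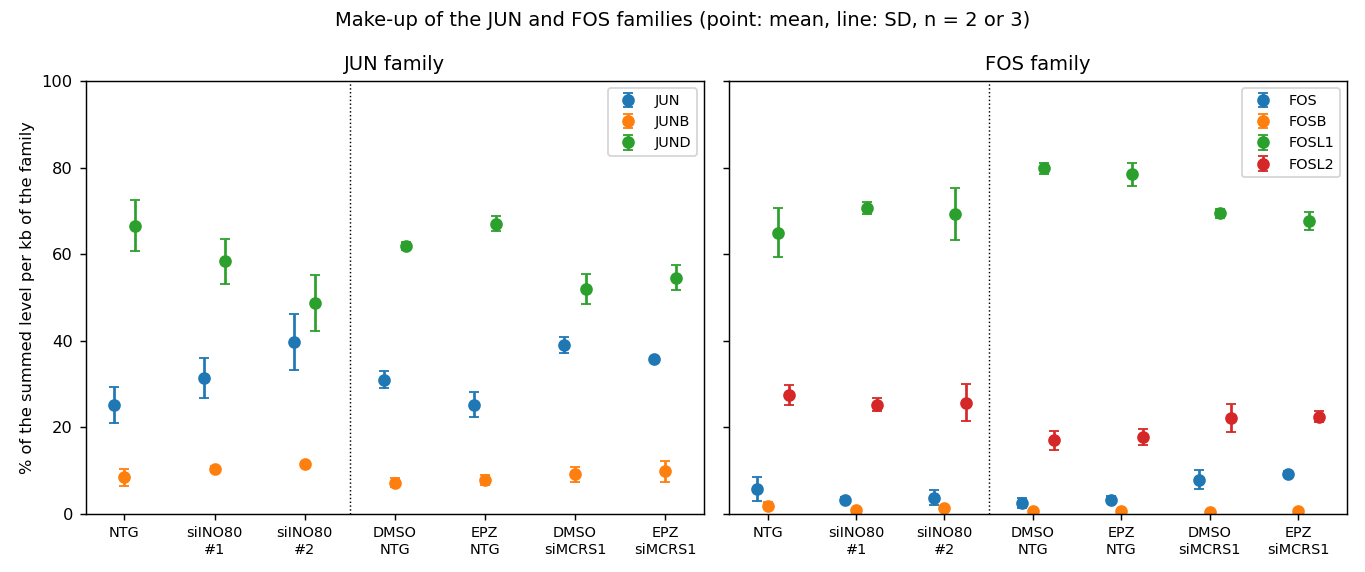
Share of each gene in the summed level per kb of the JUN family (left) and the FOS family (right), in percent, with the mean (points) and SD (lines) of 2 or 3 libraries for each of the 7 groups. The dotted line parts the separately scaled experiments. JUND and JUN average 66.5% and 25.1% in NTG and 48.8% and 39.7% with siINO80#2, and the ranges of NTG and siINO80#1 overlap.

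Genes around AP-1 were read as 5 lists of known function, for which the counts are descriptive and stand beside the shares of all genes, namely 20.7% higher and 20.8% lower with siINO80#1, 26.6% and 28.4% with siINO80#2, 23.1% and 24.6% after siMCRS1 in DMSO, and 26.8% and 26.9% in EPZ-6438. Of 17 other immediate early genes tested, 7 rose and 0 fell with siINO80#1, 11 rose and 1 fell with siINO80#2, 15 rose and 1 fell with siMCRS1 in DMSO, and 15 rose and 0 fell with siMCRS1 in EPZ-6438. The list's median log2 fold change was 0.44, 0.80, 1.28 and 1.46 in that order. In the same order, EGR1, a zinc finger factor known to be induced together with FOS, rose by 1.61 (SE 0.23, limma adjusted p = 2.68e-04), 2.17 (SE 0.23, limma adjusted p = 1.87e-05), 3.08 (SE 0.38, limma adjusted p = 1.38e-04) and 3.24 (SE 0.38, limma adjusted p = 6.64e-05). EGR3, a related factor, gave 3.22 and 3.19 with the siINO80 siRNAs, from an NTG mean of 7.48, so that it passed the filter only through the groups where it is high. EGR3 and NR4A3 had a group mean under 10 in both siINO80 comparisons with NTG. So did EGR2 for siMCRS1 in DMSO, and EGR2 and EGR3 for siMCRS1 in EPZ-6438. Leaving these out, 6 of 15 rose with siINO80#1 and 10 of 15 with siINO80#2. With siMCRS1, 14 of 16 then rose in DMSO and 13 of 15 in EPZ-6438. DUSP1, the phosphatase that switches MAP kinases off, rose by 2.12 with siMCRS1 in EPZ-6438, and IER3 by 1.89 in DMSO.

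Of 17 textbook AP-1 target genes tested, 9 rose and 3 fell with siINO80#1, and 10 rose and 3 fell with siINO80#2. With siMCRS1, 15 of 19 rose and 1 fell in DMSO, and 14 rose and 0 fell in EPZ-6438. Their median log2 fold changes were 0.52, 1.19, 1.00 and 0.89. IL11, a cytokine gene with AP-1 sites in its promoter, rose by 2.34 (SE 0.15, limma adjusted p = 2.43e-06) with siINO80#1 and 3.08 (SE 0.15, limma adjusted p = 2.89e-07) with siINO80#2. PLAU, the urokinase protease, and PLAUR, its receptor, rose by 2.45 and 2.17 with siINO80#2. CD44, the hyaluronan receptor, was not tested in the INO80 experiment for its low level. With siMCRS1 in DMSO it went from a mean of 2.39, near the level of 3 reads, to 103 normalized counts, and it passed the filter only through the siMCRS1 groups. Leaving out CD44 and MMP1, each with a group mean under 10, 14 of 17 rose in DMSO, and leaving out CD44, 13 of 18 rose in EPZ-6438. MMP3, a matrix protease, rose by 2.27 with siMCRS1 in DMSO. It was called lower with siINO80#1 (-0.65, limma adjusted p = 0.0448) and gave -0.37 with siINO80#2 (limma adjusted p = 0.2). Also called lower with siINO80#1 were SPP1 (-0.94) and VEGFA (-0.41). Those called lower with siINO80#2 were SPP1 (-0.69), VEGFA (-0.67) and HMOX1 (-0.51).

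Among kinases, ubiquitin ligases and factors upstream of AP-1, 10 of 19 rose and 1 fell with siINO80#1 (all genes 20.7% and 20.8%), and 10 rose and 2 fell with siINO80#2 (26.6% and 28.4%). With siMCRS1, 10 of 20 rose and 3 fell in DMSO, and 12 rose and 2 fell in EPZ-6438. Their median log2 fold changes were 0.29, 0.20, 0.36 and 0.50. MAP3K5 had a group mean under 10 in both siMCRS1 comparisons. Without it, 10 of 19 rose in DMSO and 11 of 19 in EPZ-6438. MAP2K4, a kinase that activates JNK, rose by 0.86 and 0.72 with the siINO80 siRNAs and by 1.14 and 1.26 with siMCRS1. MAPK3, which is ERK1, rose with siINO80#1 (1.16) and siINO80#2 (1.19), and with siMCRS1 in DMSO it gave -0.06 (SE 0.23, limma adjusted p = 0.862). RPS6KA1, the ERK-activated kinase RSK1, fell by 1.99 on the log2 scale with siMCRS1 in DMSO.

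Of 10 other bZIP factors tested, 2 rose and 3 fell with siINO80#1 and 3 rose and 4 fell with siINO80#2, near the shares of all genes. With siMCRS1, 4 rose and 2 fell in DMSO, and 5 rose and 3 fell in EPZ-6438. The medians of the 4 comparisons were -0.08, -0.24, 0.57 and 0.38. MAF, a large MAF protein with a transactivation domain, was called lower in all 4, with log2 fold changes of -2.28 with siINO80#2, -2.60 after siMCRS1 in DMSO and -2.96 in EPZ-6438. ATF2, a JUN partner at cAMP response elements, rose by 1.23, 1.10, 1.37 and 1.40. ATF3, a stress-induced factor, rose with siMCRS1 by 1.99 (SE 0.30, limma adjusted p = 3.78e-04) in DMSO, and its siINO80 values were -0.09 (SE 0.18, limma adjusted p = 0.736) and -0.23 (SE 0.18, limma adjusted p = 0.319). Among the 6 CNC partners of the small MAF proteins, 1 rose and 0 fell with siINO80#1, 3 rose and 2 fell with siINO80#2, and 4 rose and 1 fell with siMCRS1 in either medium, with medians of 0.02, 0.11, 0.57 and 0.59. NFE2L3 rose in all 4 (0.98, 0.88, 1.14 and 0.84). NFE2, a blood cell factor, was called lower with siINO80#2 (-1.77) and, under siMCRS1, with DMSO (-2.24) and with EPZ-6438 (-2.25). Its mean in DMSO_siMCRS1 was 6.45, under the 10 of the filter. Without NFE2, 4 of 5 CNC partners rose and 0 fell with siMCRS1 in DMSO.

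EPZ-6438 gave 0 limma calls over the 72 tested genes of the 5 lists in either NTG or siMCRS1 cells, with 23 and 22 at an unadjusted p under 0.05. edgeR called 1 and 0 of them, and DESeq2 called 9 and 0. Over all 14312 genes, limma called 0.384% and 0.0908%, and edgeR called 68 and 18 genes. Shares of all genes at that unadjusted p or by DESeq2 were not computed, so those counts have no background beside them.

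**Figure D5:**
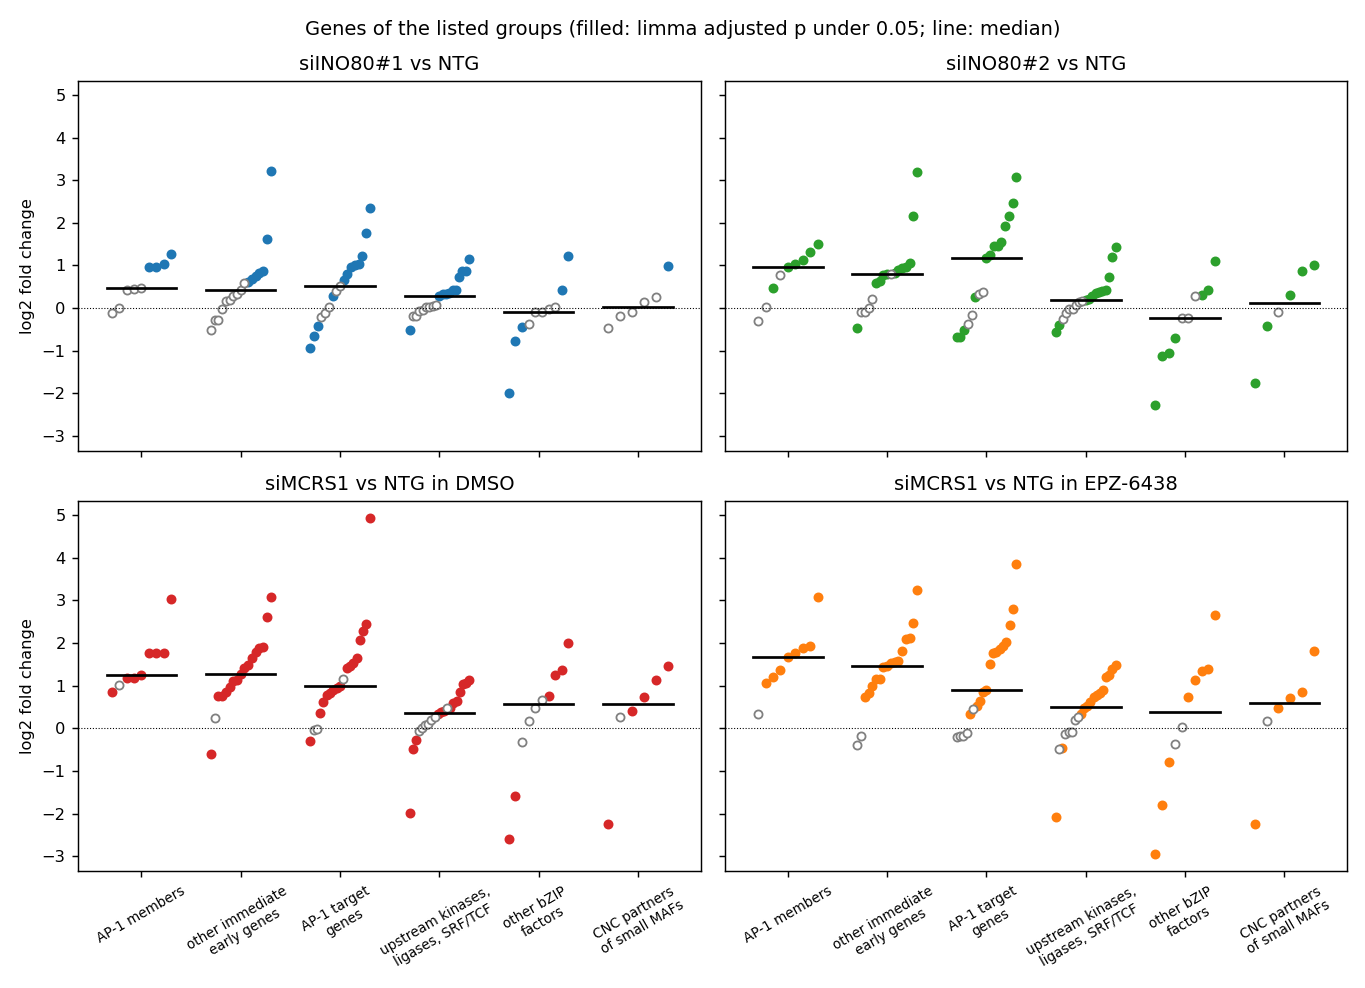
Log2 fold change of each tested gene (points) of the AP-1 members and the 5 lists, in the 4 siRNA comparisons against NTG, on a shared axis. Filled points have a limma adjusted p under 0.05, and the black line is the list's median. Members, other immediate early genes and AP-1 target genes lie mostly above 0 in each panel, whereas other bZIP factors spread to both sides.

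The genes whose levels followed each member most closely were sought over all 19 libraries, each centred on its own experiment, among 11420 genes. These correlations describe libraries that share the siRNA groups and carry no test. FOSL2 went most with LUZP1 (Pearson r = 0.99), JUN with U2AF2 (0.99) and FOSL1 with SH3RF2 (0.98). FOS went most with RHPN2 (0.97), ING1 (0.96) and the MAP kinase phosphatase gene DUSP1 (0.96). JUNB went with SSR2 (0.97), the stress cytokine gene GDF15 (0.97) and EGR1 (0.97), MAFK with ENC1 (0.97), JUND with SCAMP4 (0.93) and FOSB with FBXO44 (0.92). MAFF had the loosest match, with POU2F1 (0.82).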

How the data were processed

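RNA-seq was measured in 19 HepG2 libraries (Kapa stranded mRNA kit). Per the submitters' processing notes, kallisto, DESeq2 and GRCh38 were used, and versions were not given in the sources used here. The deposited values are a signal per gene, made by the authors as estimated counts over a size factor for each library. Dividing each column by its smallest value above 0 gave whole reads for all values (tolerance 1e-06). Whether counting used the strand is not given in the sources used here. The 2 tables were scaled separately and compared only within themselves.

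Values were tested as log2(value + 1) with limma 3.58.1 (R 4.3.3, eBayes with a trend) over all groups of an experiment, leaving out genes whose mean was under 10. P-values were adjusted by Benjamini-Hochberg over all genes tested, with a threshold of 0.05. A fold change on this scale understates that of low genes. Intervals of 95% came from the same fit. edgeR 4.0.16 and DESeq2 1.42.0 on the recovered reads, other pseudocounts (0.1 and 5), filters and scalings, each library left out and a replicate block were alternatives. A block by column number in the drug experiment was added after seeing the data. Deviations of same-letter libraries from their group means correlated by over 0.1 in all 3 pairs of NTG with siINO80#1 (0.14 to 0.26) and not in all pairs of the other INO80 comparisons, and the blocked value is given where it changed a call. The code was tested on simulated data. Libraries of 1 group differed by more than sampling noise (chi-square per degree of freedom 9.45 to 121, the highest for siINO80#2 replicate C). No label says that replicates were separate cultures, so p-values measure the spread between these libraries, which may be technical, and no label gives a batch or date.

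The members and lists were chosen with earlier results of these data known. Named were the 9 members, at most 4 called genes of each list and comparison by size of effect, beside uncalled values given for contrast, and for each member the genes of highest Pearson r among those with a mean of at least 50 in both tables. ATF3 and MAPK3 values outside that rule were added after they were seen, as were those of AP-1 target genes called lower with the siINO80 siRNAs. Transcript lengths were those of the GENCODE v44lift37 canonical transcripts, and gene positions, promoter sequences and starts came from RefSeq (GRCh38.p14). Python 3.11.15 scripts searched motifs on both strands.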

Additional observations from a re-analysis of the deposited data

How the results depend on the processing

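The number of members called stayed within 1.5 times the reported one under each alternative run for siINO80#1 (4 to 6, 4 reported), siINO80#2 (5 to 7, 6 reported) and siMCRS1 in DMSO (7 to 9, 8 reported) and in EPZ-6438 (7 to 8, 8 reported). For siINO80#2 against siINO80#1, the 1 call, FOSB, became 0 with no filter on low values. It became 0 with a mean of at least 50, which leaves FOSB untested. On leaving out each library the FOSB call was lost every time, and the count was between 0 and 1. The call that made up this 1 was JUND, lower with siINO80#2, without siINO80#1 replicate A (-0.64, limma adjusted p = 0.0401). For EPZ-6438 in NTG cells, the count of 0 became 1 with DESeq2 and 3 with a block by column number. Of the single members' values under the alternatives, 1160 stayed on the same side of the threshold, 21 fell short of it, 17 newly passed it and 0 called values changed sign.

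Scaling each library to the same total shifted the median of all genes by -0.08 and -0.11 for siINO80#1 and siINO80#2 and by -0.23 for siMCRS1 in either medium (log2). The members' values under it are to be read relative to that shift.

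The labels do not say what the replicate letters A, B and C share. Deviations from the group means of same-letter libraries correlated by 0.10 on average over 9 pairs (-0.08 to 0.26, 5 of them over 0.1), against -0.05 over 18 other pairs. The 3 pairs of NTG with siINO80#1 were all over 0.1 (0.14 to 0.26), which was not so for the other comparisons. With the letter as a block, 5 members were called for siINO80#1, with JUND added, and 6 for siINO80#2, and for siINO80#2 against siINO80#1 the count went from 1 to 2, with JUND added (adjusted p = 0.00559). In the drug experiment the labels give letters, whereas 8 of the 10 columns carry numbers that could not be matched to them, and EPZ_siMCRS1 carries letters alone. A block by column number over those 8 libraries, chosen after seeing the data, left 8 members called for siMCRS1 in DMSO and called 3 for EPZ-6438 in NTG cells, where the same libraries without a block gave 8 and 0. Same-number libraries correlated by -0.02 to 0.30 in 7 pairs, 6 of them over 0.1. No block was fitted for the comparisons with EPZ_siMCRS1, whose letters were not matched to the numbers. Where leaving out a library left 1 in a group, that library was assumed to vary like those of the other groups. Levels of FOSB and of FOS in NTG cells rested on few reads, and their intervals set the limit of what could be detected.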
